A study of Homo sapiens with 4 samples.

Results

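AP-1 and immediate early genes were examined in the m6A peak lists of OE-19 cells. The set held 10 genes chosen by name (JUN, JUNB, JUND, FOS, FOSB, FOSL1, FOSL2, ATF3, IER2 and IER5) of the 62700 genes in the GENCODE 44 annotation, of which 20046 code for protein. A peak was assigned to a gene where its summit, the base of highest signal, lay in the gene body on the hg38 genome. By this rule 17 of 24607 peaks in replicate 1 and 13 of 19318 peaks in replicate 2 belonged to the set, and every one of these summits lay in an annotated exon. JUN, JUNB, JUND, FOS, FOSB, FOSL2, IER2 and IER5 had peaks in both replicates. FOSL1 had peaks in replicate 1 and none in replicate 2, and ATF3 had a peak in replicate 2 and none in replicate 1.

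The peaks came from meRIP-seq, in which an antibody against N6-methyladenosine (m6A) enriches the methylated fragments of RNA before sequencing. OE-19 is an established human cell line of adenocarcinoma of the esophagogastric junction, and the cells were grown without any treatment or gene knockdown given in the labels. By the labels the cells were fixed with UV light and lysed, whereas the study's methods describe fragmented total RNA, so which material met the antibody is not settled here. The samples were 2 replicates pulled down with anti-m6A, each with its own peak list, and 2 input replicates whose peaks were not analysed here. The labels do not say whether the replicates were separate cultures, and the lists hold no read numbers, so the depth behind each peak is unknown and no test between conditions was possible.

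AP-1 is a family of dimeric transcription factors that bind DNA through a basic region and pair through a leucine zipper. JUN proteins can pair with themselves or with FOS proteins, whereas FOS proteins need a JUN partner. Many of these genes are immediate early genes, which growth factors and stress switch on within minutes without new protein synthesis, and whose mRNAs are short-lived. In mRNA, m6A is known to be written mostly within the sequence DRACH, in which D stands for any base but C, R for a purine and H for any base but G, and it is known to be common near stop codons and in long exons. GGAC, with the adenine methylated, is a frequent core of that sequence.

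Exon 2 of the FOS family is shown first, since related genes differed in it. Exon 2 of FOS and exon 2 of FOSL2 each had a summit in both replicates, and exon 2 of FOSB and FOSL1 had none in either replicate. The FOSL2 peak of replicate 2 was weak, with a −log10 q of 1.59, and was lost under both stricter limits on q that were tried, so the difference from FOSB in that replicate rests on a weak peak. The 61-nt stretches below lie in these exons, all in coding sequence, and are given 5′ to 3′ on the gene's strand with GGAC in capitals. The stretches of FOS (chr14:75279920-75279980, plus strand), FOSB (chr19:45470669-45470729, plus strand) and FOSL2 (chr2:28404150-28404210, plus strand) are centred on the GGAC adenine. That of FOSL1 (chr11:65896930-65896990, minus strand) is the part of its exon 2 most like the FOSL2 stretch without gaps.
FOS: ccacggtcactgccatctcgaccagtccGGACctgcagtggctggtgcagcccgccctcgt
FOSB: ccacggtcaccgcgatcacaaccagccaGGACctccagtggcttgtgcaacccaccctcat
FOSL2: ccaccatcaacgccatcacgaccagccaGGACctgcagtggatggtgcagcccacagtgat
FOSL1: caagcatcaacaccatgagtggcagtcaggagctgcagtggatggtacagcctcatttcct

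The stretches of FOS and FOSB shared 50 of 61 bases (82.0%), those of FOSB and FOSL2 shared 49 (80.3%), and those of FOS and FOSL2 shared 48 (78.7%). The FOSL1 stretch shared 43 bases (70.5%) with that of FOSL2 and held 0 GGAC. Counting from the first base of the exon, the GGAC adenine lay at nt 74 in FOS, nt 74 in FOSL2 and nt 71 in FOSB. A further GGAC adenine lay at nt 14 in FOS and at nt 177 in FOSL2, outside the stretches shown. The FOS summits lay at nt 97 in replicate 1 and nt 88 in replicate 2, and the FOSL2 summits lay at nt 116 and nt 130, past the end of the FOSL2 stretch shown. Within 50 nt of the FOSL2 summit the only GGAC was that at nt 74 in replicate 1 and that at nt 177 in replicate 2. Both exons with summits were 252 nt long, and over their whole length 131 of 252 bases were identical (52.0%). FOSB therefore held the same core motif in nearly the same place as FOS and FOSL2, with no peak summit in the exon. The FOSB peaks elsewhere were weak in replicate 1, with a −log10 q of 4.29 and 3.55, against 13.6 to 23.1 for the FOS peaks. In replicate 2 the FOSB peak had 10.1, against 7.33 and 50.2 for FOS. Little RNA and little m6A at FOSB exon 2 cannot be told apart.

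Sequences at other summits are shown for members with and without the core motif at the summit. The windows of JUN (chr1:58782623-58782723, minus strand), IER2 (chr19:13153685-13153785, plus strand) and IER5 (chr1:181089754-181089854, plus strand) reach 50 nt to each side of the replicate 1 summit in coding sequence. None of them holds GGAC, and capitals mark DRACH.
JUN: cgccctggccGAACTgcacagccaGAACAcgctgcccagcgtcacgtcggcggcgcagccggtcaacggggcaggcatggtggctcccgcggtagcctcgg
IER2: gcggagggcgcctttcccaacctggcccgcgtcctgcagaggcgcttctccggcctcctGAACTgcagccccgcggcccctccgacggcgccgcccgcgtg
IER5: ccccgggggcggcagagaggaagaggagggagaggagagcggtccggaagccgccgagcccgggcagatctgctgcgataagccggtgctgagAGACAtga

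In the next windows, which do hold the core motif, capitals mark GGAC. The windows of JUND (chr19:18280712-18280812, minus strand) and FOS (chr14:75281149-75281249, plus strand) are coding sequence around a replicate 2 summit. The shorter windows of JUNB (chr19:12792828-12792857, plus strand), FOSL2 (chr2:28412485-28412514, plus strand) and FOSL1 (chr11:65892803-65892832, minus strand) span 30 nt of 3′ UTR around a replicate 1 summit just after the stop codon.
JUND: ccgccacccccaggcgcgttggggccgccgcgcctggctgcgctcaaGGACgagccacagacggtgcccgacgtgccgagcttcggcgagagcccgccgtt
FOS: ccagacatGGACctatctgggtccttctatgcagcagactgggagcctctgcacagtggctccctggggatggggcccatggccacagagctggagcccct
JUNB: cctttacGGACaccccctcgcttGGACggc
FOSL2: ctcctcgctcctccttcccagGGACcagca
FOSL1: ttcccccaccggtccagctggcctGGACag

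Peaks were found on most members in each replicate. In replicate 1, 9 of 10 members had a peak, against 47.0% of all protein-coding genes, and in replicate 2, 9 of 10 had one, against 40.8%. In both replicates 8 of 10 members had a peak, against 37.7%. With the summit required to lie in an exon, the members' count in both replicates was again 8, against 31.9%. The lists do not show how much of a transcript was present, so a gene with little RNA and a gene with little m6A cannot be told apart, and the part of expression in these counts was not tested.

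**Figure D1:**
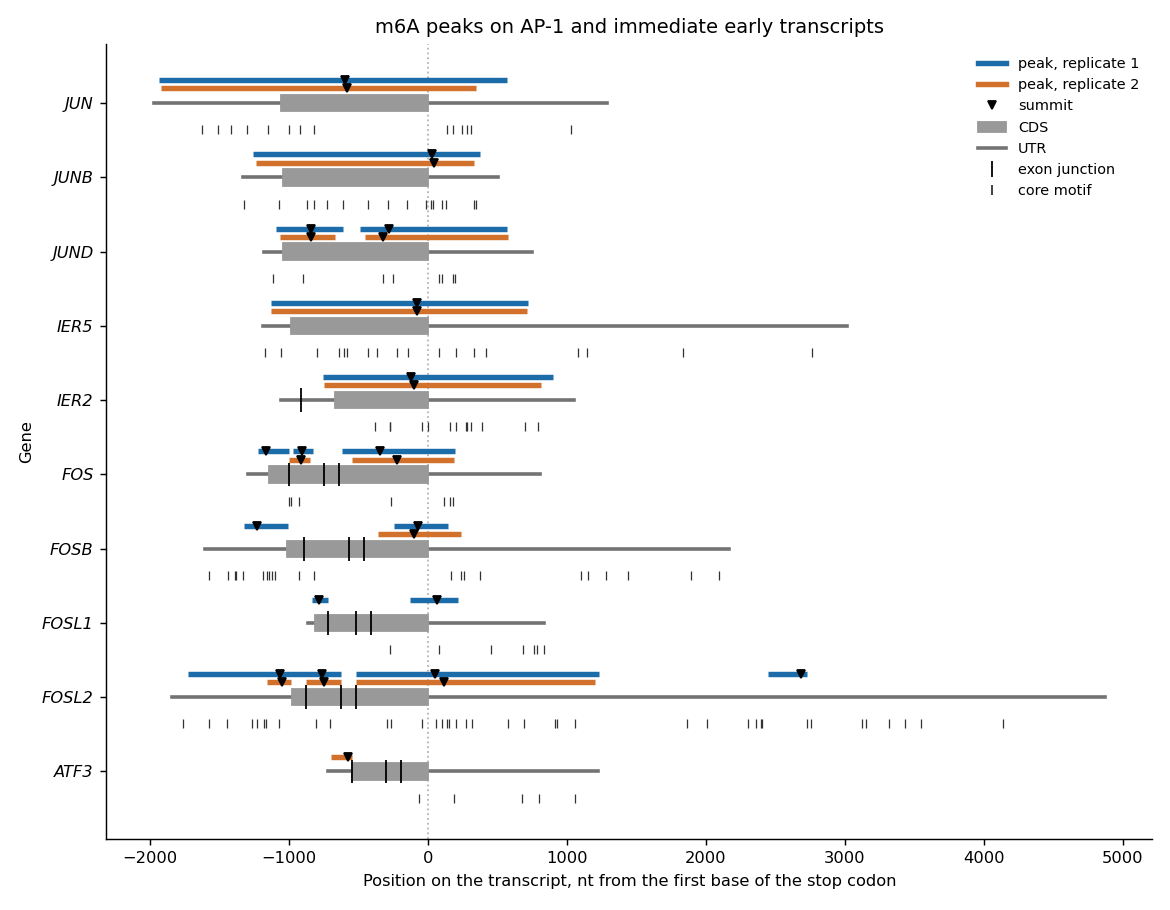
m6A peaks on the 10 transcripts, each drawn with its coding sequence (thick grey) and untranslated regions (thin grey), with position in nt from the start of the stop codon on the x axis. Blue bars are the exonic parts of replicate 1 peaks, orange bars those of replicate 2, triangles are summits and the ticks below each gene are GGAC motifs; the bars of JUN, JUNB, IER2 and IER5 run over the whole coding sequence in both replicates, and peaks in neighbouring exons can touch because introns are left out.

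Positions below are counted in nt from where the stop codon begins, on the transcript with the longest coding sequence, with negative values upstream. The fold enrichment is the ratio that the peak caller gave at the summit over its local background. It is not a level of m6A or of RNA. In the whole lists the median fold enrichment of exonic peaks was 5.30 in replicate 1 and 4.82 in replicate 2.

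The JUN genes, each with 1 exon in the transcript used, carried wide peaks, with most of that transcript under peaks in both replicates. JUN, the core subunit of AP-1 (ENSG00000177606, chr1:58776845-58784048, minus strand), had 1 peak in each replicate. In replicate 1 it spanned 2507 bp (chr1:58781505-58784011) with a fold enrichment of 7.20, and in replicate 2 it spanned 2268 bp (chr1:58781730-58783997) with a fold enrichment of 5.05. These were among the widest of all exonic peaks, wider than 99.3% and 99.1% of them, and they covered the whole JUN coding sequence in both replicates. The summits lay in the coding sequence at −596 and −581, 15 bp apart and far from the stop codon. The peak held 13 GGAC motifs in each replicate, of 14 in the transcript, but 0 within 50 nt of the summit, where the motifs in the window shown above are other forms of DRACH.

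JUNB, which pairs like JUN but can oppose it in control of cell division (ENSG00000171223, chr19:12791486-12793315, plus strand), had 1 peak per replicate with the summit just after the stop codon. The peak was 1630 bp wide in replicate 1 (chr19:12791557-12793186) and 1568 bp wide in replicate 2 (chr19:12791579-12793146), and the summits lay at 29 and 45. Fold enrichment was 5.01 in replicate 1 and 2.62 in replicate 2, the largest ratio between replicates among the pairs with the higher value in replicate 1. JUNB was the most GGAC-rich member, with 16 motifs or 8.74 per kb, more than in 96.2% of protein-coding transcripts with a peak in both replicates. Within 50 nt of the summit there were 3 GGAC in replicate 1 and 2 in replicate 2. The body of HOOK2 on the opposite strand overlaps JUNB, but no exon of another gene lay at the summit.

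JUND, the JUN protein that is made more steadily and induced less (ENSG00000130522, chr19:18279694-18281622, minus strand), had 2 peaks in each replicate. The first, near the start of the coding sequence, was 485 bp wide in replicate 1 (chr19:18281051-18281535) and 393 bp wide in replicate 2 (chr19:18281111-18281503), with a fold enrichment of 3.08 and 2.41. Its summit lay on the same base in both replicates, at −839. Its summit window of 50 nt to each side had a GC content of 80.2% and held 0 GGAC and 0 DRACH of any form. The second peak was 1058 bp wide in replicate 1 (chr19:18279870-18280927) and 1030 bp wide in replicate 2 (chr19:18279868-18280897), with a fold enrichment of 2.97 and 2.52. Its summits lay at −280 and −319, and the replicate 2 summit was 1 base from a GGAC adenine. That motif is followed by G and is not a form of DRACH, of which 0 lay within 50 nt of this summit. Both JUND peaks were therefore found in each replicate, at fold enrichments among the lowest 15.1% of exonic peaks.

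The FOS genes have 4 exons each in the transcripts used, and their peaks were split over exons 1, 2 and 4. Exon 3, which was 108 nt long in FOS, FOSB, FOSL1 and FOSL2, held 0 summits and 0 GGAC in each of them. FOS, the best known growth factor-induced gene of the family (ENSG00000170345, chr14:75278826-75282230, plus strand), had 3 peaks in replicate 1 and 2 in replicate 2. The peak in exon 1 (chr14:75278902-75279207) had a value of 4.64 in replicate 1, with the summit in the 5′ UTR at −22 nt from the start codon, and had no partner in replicate 2. The exon 2 peak had a fold enrichment of 3.77 (chr14:75279909-75280048) and 2.60 (chr14:75279838-75280032), with the summits 9 bp apart.

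The peak of exon 4, the last exon of FOS, went the other way. Its fold enrichment was 3.43 in replicate 1 (chr14:75280804-75281618) and 5.68 in replicate 2 (chr14:75280876-75281610), and its summits at −346 and −223 were 123 bp apart. This was the largest distance between summits among the 12 pairs of the set. FOSB showed a like order of replicates at its last exon.

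FOSB, whose shorter splice form ΔFosB builds up with repeated stimulation (ENSG00000125740, chr19:45467995-45475179, plus strand), had a peak at the stop codon in both replicates. Its fold enrichment was 3.78 in replicate 1 (chr19:45472766-45473158) and 6.86 in replicate 2 (chr19:45472654-45473250), with the summits at −70 and −100. A further peak in the 5′ UTR of exon 1 (chr19:45468278-45468596) reached 5.06 in replicate 1 and was absent from replicate 2. The FOSB transcript held 22 GGAC, of which 0 lay in the stretch of 393 bp covered in both replicates. The body of ERCC1 on the opposite strand overlaps FOSB, with no exon at either summit.

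FOSL1 and FOSL2 encode FRA1 and FRA2, FOS relatives that lack the strong activation domain of FOS. FOSL2 (ENSG00000075426, chr2:28392448-28417317, plus strand) was the member with the most peaks, 4 in replicate 1 and 3 in replicate 2. Its strongest peak lay at the stop codon and ran into the long 3′ UTR. This peak was 1750 bp wide in replicate 1 (chr2:28411926-28413675) and 1721 bp wide in replicate 2 (chr2:28411930-28413650), with a fold enrichment of 4.86 and 4.09 and summits at 53 and 118. It held 15 GGAC in each replicate.

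The other FOSL2 peaks were weak. At the exon 2 peak the fold enrichment was 2.19 in replicate 1 (chr2:28404059-28404425) and 1.49 in replicate 2 (chr2:28404061-28404395). The latter was the weakest peak of the set, with a −log10 q of 1.59 and a fold enrichment higher than in 0.1% of exonic peaks. In exon 1 the fold enrichment was 2.77 for a peak of 908 bp in replicate 1 (chr2:28392976-28393883) and 2.34 for a peak of 174 bp in replicate 2 (chr2:28393543-28393716), with the summits 17 bp apart in the 5′ UTR. This exon 1 belongs to 1 of 4 annotated FOSL2 transcripts, and the body of the antisense gene FOSL2-AS1 overlaps it. A distal 3′ UTR peak at 2685 (chr2:28414896-28415177) reached 2.11 in replicate 1, without a partner in replicate 2.

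FOSL1 (ENSG00000175592, chr11:65892049-65900573, minus strand) had 2 peaks in replicate 1, neither of which was found in replicate 2. One lay in exon 1 (chr11:65900239-65900361) with a fold enrichment of 4.65, and at 123 bp it was the narrowest of the set. The other lay in the 3′ UTR at 70 (chr11:65892670-65893013) with a fold enrichment of 3.94. Just outside the gene, peaks of the neighbouring gene CCDC85B were found in both replicates, with the summit 647 bp and 717 bp past the end of FOSL1 and a fold enrichment of 8.31 and 6.42. They were not counted for FOSL1.

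ATF3, a stress-induced factor of the ATF family that can pair with JUN proteins (ENSG00000162772, chr1:212565334-212620777, plus strand), had the fewest peaks of the set. There were 0 peaks in replicate 1 and 1 in replicate 2 (chr1:212608779-212608990), with a fold enrichment of 4.67, close to the median of all exonic peaks. The summit lay in the 5′ UTR of exon 1, an exon used by 2 of its 10 annotated transcripts. The last exon of ATF3, with 1418 nt and 5 GGAC, held 0 summits in both replicates.

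IER2 and IER5 are immediate early genes that are not AP-1 subunits. IER2 encodes a small nuclear protein, and IER5 encodes a related protein that binds the heat shock factor HSF1. Both had 1 wide peak per replicate with the summit in the last part of the coding sequence. For IER5 (ENSG00000162783, chr1:181088700-181092900, plus strand) the peak began on the same base in both replicates and was 1853 bp (chr1:181088756-181090608) and 1845 bp wide (chr1:181088756-181090600). Its fold enrichment was 8.11 in replicate 1, the highest value of the set, and 4.94 in replicate 2, and the summits at −80 and −76 were 4 bp apart. The −log10 q of 71.5 in replicate 1 was higher than that of 98.4% of exonic peaks.

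For IER2 (ENSG00000160888, chr19:13150411-13154911, plus strand) the peak was 1655 bp wide in replicate 1 (chr19:13153105-13154759) and 1562 bp wide in replicate 2 (chr19:13153112-13154673). Fold enrichment was 3.83 and 3.21, and the summits lay at −121 and −99. As in JUN, the IER2 and IER5 peaks each held 13 GGAC in both replicates but 0 within 50 nt of the summit. An exon of the antisense lncRNA ENSG00000267598 overlaps the IER2 summit, and since the lists carry no strand, the peak cannot be assigned to either gene with certainty.

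**Figure D2:**
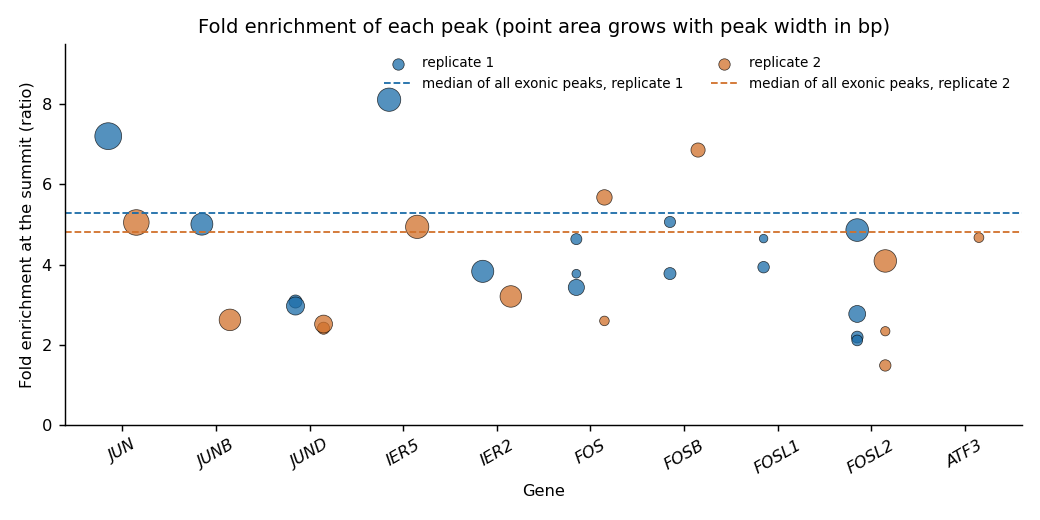
Fold enrichment at the summit of each peak (y axis, ratio) for the 10 genes, in replicate 1 (blue) and replicate 2 (orange), with point area growing with peak width and dashed lines at the median of all exonic peaks of each list. In replicate 1, 15 of 17 points lie below their line, and in replicate 2, 9 of 13 do.

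Peaks of the set had lower fold enrichment than most exonic peaks. The median was 3.83 in replicate 1 (range 2.11 to 8.11) and 3.21 in replicate 2 (range 1.49 to 6.86), against 5.30 and 4.82 for all exonic peaks. In replicate 1, 15 of 17 peaks were below the median of all exonic peaks, and in replicate 2, 9 of 13 were. The exceptions in replicate 1 were JUN and IER5, and in replicate 2 they were JUN, IER5, FOSB and FOS exon 4.

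To order the genes, the strongest peak of each gene in each replicate was taken, and the geometric mean of both replicates was used. The order was IER5 (6.33), JUN (6.03), FOSB (5.89), FOS (5.13), FOSL2 (4.46), JUNB (3.62), IER2 (3.51) and JUND (2.79). Neighbours in this order had overlapping ranges over the 2 replicates, except IER2 (3.21 to 3.83) and JUND (2.52 to 3.08). For FOS and FOSB the strongest peak lay in exon 1 in replicate 1 and in the last exon in replicate 2. The median over the 8 genes was 4.79, against 6.71 over the 6391 protein-coding genes with an exonic peak in both replicates, and 0 of 8 members were above that value.

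Agreement of the replicates was then examined peak by peak. Of the replicate 1 peaks, 12 of 17 (70.6%) overlapped a replicate 2 peak, against 60.2% of all exonic peaks of that list. Of the replicate 2 peaks, 12 of 13 (92.3%) overlapped a replicate 1 peak, against 95.0%. The 5 peaks of replicate 1 without a partner were those in the first exon of FOS, FOSB and FOSL1, the FOSL1 3′ UTR peak and the distal FOSL2 peak. The 1 peak of replicate 2 without a partner was that of ATF3, also in a first exon.

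The shared peaks formed 12 pairs, and within a pair the summits lay close together. The median distance was 16.5 bp, against 26 bp over 11741 exonic pairs. In 11 of 12 pairs the summits lay within 100 bp, and the share of all exonic pairs within that distance was not computed. The part common to both peaks was a median of 90.9% of their joint length, against 79.4% over all pairs. The lowest value was 19.2% for FOSL2 exon 1 and the highest was 99.6% for IER5. Pairs of peaks of 1000 bp or more had 90.5% to 99.6%, and the other pairs had 19.2% to 91.3%. The part of peak width in the higher median was not tested.

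In 10 of 12 pairs the fold enrichment was higher in replicate 1, against 80.0% of all exonic pairs. The log2 ratio of replicate 1 over replicate 2 had a median of 0.30 (SD 0.53, n = 12 pairs), against 0.43 (SD 0.55) over all pairs. It was 0.93 for JUNB, 0.72 for IER5, 0.51 for JUN, 0.26 for IER2, and 0.24 and 0.35 for the JUND peaks. In FOSL2 it was between 0.24 and 0.56. These values were positive, like those of most peaks in the lists.

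The exceptions were FOSB at −0.86 and FOS exon 4 at −0.73, which stood at the 1.5 and 2.3 percentiles of all exonic pairs. The FOSB value rests on a weak replicate 1 peak, with a −log10 q of 3.55, that was lost under the strictest limit on q. FOS exon 2 had a positive value of 0.54, so the FOS peaks of exons 2 and 4 differed in direction within the same transcript. With 1 library per replicate, these differences between the lists have no error of their own.

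**Figure D3:**
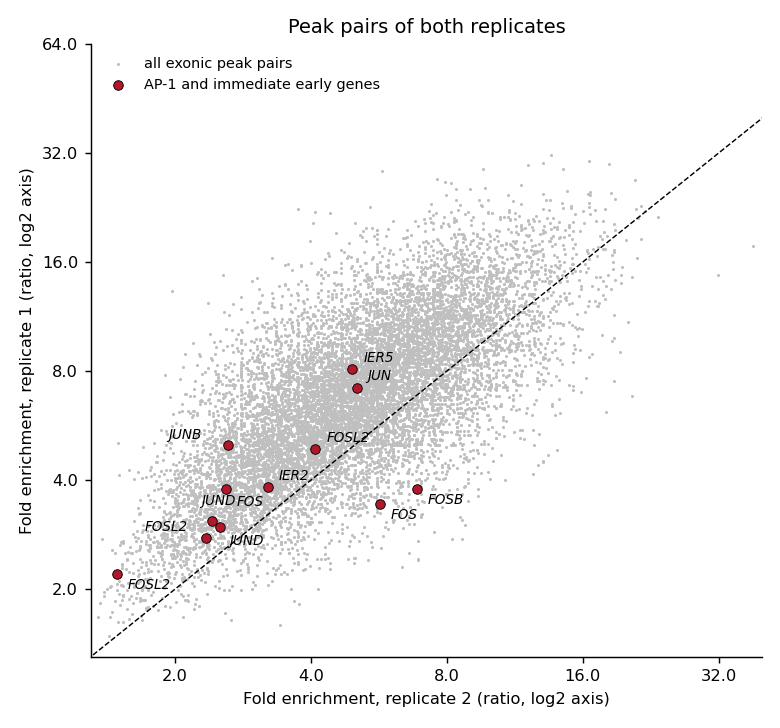
Fold enrichment of each peak pair in replicate 2 (x axis) and replicate 1 (y axis), both on log2 axes, for 11741 exonic pairs (grey) and the 12 pairs of the set (red, with gene names), with a dashed line at equal values. FOSB and FOS exon 4 lie below the line, and the other 10 pairs of the set lie above it.

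Wide peaks made up a large portion of the set. Peaks of 1000 bp or more were 6 of 17 (35.3%) in replicate 1, against 9.21% of all exonic peaks, and 6 of 13 (46.2%) in replicate 2, against 9.89%. They belonged to JUN, JUNB, JUND, IER2, IER5 and FOSL2 in each replicate. Of these genes JUN, JUNB, JUND and IER5 have 1 exon in the transcripts used, and the IER2 and FOSL2 peaks lay in last exons of 1968 nt and 5388 nt. Among all peaks on genes with 1 exon, 39.7% of 348 peaks in replicate 1 and 35.5% of 304 in replicate 2 were this wide. In exons of 1800 nt or more the shares were 16.9% and 15.7%.

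Over the whole lists, wide peaks were the stronger ones, with a median fold enrichment of 8.29 against 5.09 for narrower peaks in replicate 1 and 6.20 against 4.67 in replicate 2. All 6 wide peaks of the set were below that median of wide peaks in each replicate. The remaining members, FOS, FOSB, FOSL1 and ATF3, had no peak of 1000 bp or more in either replicate.

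**Figure D4:**
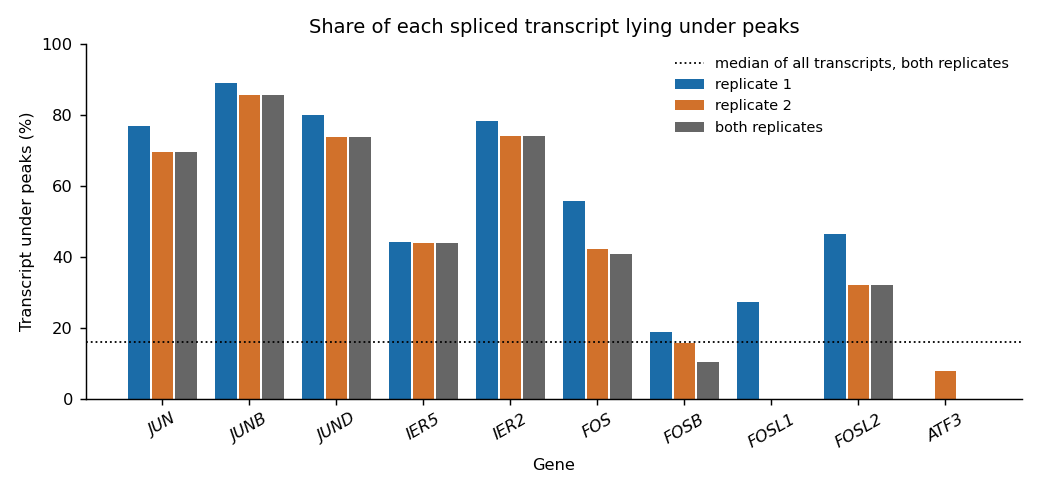
Percent of each spliced transcript lying under peaks (y axis) for the 10 genes in replicate 1 (blue), replicate 2 (orange) and the stretch common to both (grey), with a dotted line at the median of 6103 protein-coding transcripts with such a stretch (16.2%). JUNB reaches 85.7% and FOSB 10.4% in both replicates, and FOSL1 and ATF3 have no common stretch.

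The portion of each transcript lying under peaks of both replicates was 85.7% for JUNB, 74.0% for IER2, 73.7% for JUND and 69.6% for JUN. It was 43.9% for IER5, 40.8% for FOS, 32.0% for FOSL2 and 10.4% for FOSB. The median of these 8 genes was 56.8%, against a median of 16.2% over all 6103 protein-coding transcripts with a common stretch. JUNB stood at the 99.2 percentile, and FOSB (32.8) was the member below the median. The coding sequence was covered in full in JUN, JUNB, IER2 and IER5, and to 79.5% in JUND, 78.5% in FOSL2, 58.8% in FOS and 24.1% in FOSB. The share of all transcripts with full cover was not computed. The 8 transcripts ran from 1830 nt in JUNB to 6713 nt in FOSL2, and the part of length in the percentages covered was not tested.

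Summits were then sorted by region of the transcript. A window of 200 nt to each side of the stop codon held 6 of 17 summits (35.3%) in replicate 1, against 24.6% of all exonic summits on the transcripts used, and 5 of 13 (38.5%) in replicate 2, against 27.3%. In both replicates these were the summits of JUNB, FOSB, FOSL2, IER2 and IER5, joined by FOSL1 in replicate 1. A further 7 of 17 summits in replicate 1 and 6 of 13 in replicate 2 lay elsewhere in the coding sequence, among them those of JUN, JUND and FOS. Over all exonic summits that share was 49.43% and 48.35%. The 5′ UTR held 3 and 2, against 8.7% and 5.42% of all exonic summits. The 3′ UTR beyond the window held 1 and 0, against 17.29% and 18.97%.

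The core motif was searched on the gene's strand within 50 nt of each summit. GGAC was found at 9 of 17 summits (52.9%) in replicate 1, against 49.7% of all exonic summits, and at 7 of 13 (53.8%) in replicate 2, against 51.5%. These shares are near the background. Any form of DRACH, which includes GGAC followed by A, C or T, was found at 16 of 17 and 11 of 13 summits, and the whole peak held GGAC in 15 of 17 and 12 of 13. For these counts the share over all exonic summits or peaks was not computed, so no enrichment can be read from them.

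Counted over the transcripts rather than at summits, GGAC was denser under the peaks of both replicates. The 8 genes held 83 motifs or 6.88 per kb there and 54 or 3.90 per kb elsewhere, against 6.24 and 3.51 per kb over all 6103 transcripts. The density was higher under peaks in 7 of 8 genes, and the share of all 6103 transcripts with this order was not computed. IER2 had 8.32 per kb under its peak and 0 elsewhere, JUN had 5.73 and 1.01, and FOS had 5.82 and 1.61. FOSB was the exception, with 0 per kb in the common stretch and 6.51 elsewhere.

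The summits lay in GC-rich sequence. The median GC content within 50 nt was 68.3% in replicate 1 and 70.3% in replicate 2, against 58.4% and 56.4% for all exonic summits, and 15 of 17 and 13 of 13 summits were above these values. The part of base composition in the peak calls was not tested.

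Other genes of the pathway also carried peaks. Of 12 further factors that can pair with AP-1 proteins, 7 (58.3%) had exonic peaks in each of the replicates, against the 31.9% of all protein-coding genes given above. Among them, ATF7, a relative of ATF2, reached 10.8-fold enrichment in replicate 1 and 5.20-fold in replicate 2. The small MAF protein MAFK had 9.32 and 6.02, and JDP2, which can pair with JUN proteins, had 8.42 and 5.34. BATF had 4.86 and 5.83, MAFF had 4.63 and 2.73, and MAFG had 3.82 and 2.27.

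Of 16 other immediate early genes, 11 (68.8%) carried exonic peaks in both lists. DUSP1, a phosphatase that switches off MAP kinases, had a fold enrichment of 17.0 and 6.91 at its strongest peaks. EGR1, a zinc finger factor induced together with FOS, had 8.69 and 10.4, and CCN2, a secreted matrix protein, had 8.05 and 9.33. Like FOSB, EGR1, CCN2 and IER5L (5.93 and 6.15) had the higher value in replicate 2. These values are the strongest peaks of each list and need not be matched pairs. NR4A2, BTG2, IER5L, NR4A1 and KLF6 followed.

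Of 14 genes that act upstream, 9 (64.3%) did so. MRTFA and MRTFB, the actin-regulated partners of SRF, had 19.1 and 8.68 and 11.3 and 9.02 in replicates 1 and 2. CREB1, which binds the FOS promoter after cAMP or calcium signals, had 11.7 and 9.80. ELK4, ELK3, RPS6KA5, RPS6KA3 and RPS6KA1 followed. SRF itself, which binds the serum response element, had 3.78 and 2.42. In each of these lists 3 genes were above the median of 6.71 over all protein-coding genes with exonic peaks in both replicates, whereas in the set itself 0 were. No test of that difference was made.

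The cell type was also examined through peaks. Of 7 markers of epithelial cells and of OE-19, 1 (14.3%), CDH1, carried exonic peaks in both lists, against 31.9% of all protein-coding genes. Its fold enrichment was 4.47 and 3.86. The other 6, EPCAM, KRT8, KRT18, KRT19, ERBB2 and GRB7, had none. Of 5 markers of other cell types, COL1A1 had a peak in replicate 1 and none in replicate 2, and VIM, COL1A2, PTPRC and PECAM1 had none. A peak shows that a transcript was pulled down and is not a level of expression, so these lists cannot settle the identity of the cells.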

How the data were processed

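meRIP-seq of OE-19 cells was analysed from 1 peak list for each of 2 m6A IP samples, grouped by their labels. The inputs had no list used here. In the study's methods TopHat2 was the aligner (hg38) and MACS2 the peak caller, both at default settings, whereas the submitters' processing notes name fastp, HISAT2 and MACS2. Versions, and whether the inputs were the control, are not given in the sources used here. The authors deposited for each peak a fold enrichment (a ratio at the summit), −log10 p-values and −log10 q-values, a score that was not used, and the summit as an offset from the peak start. The highest q was 0.0491 and 0.0497, so only peaks past the caller's threshold can be seen.

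From these, summits were placed on genes, exons and the transcript with the longest CDS of GENCODE 44 (for JUN this is not the transcript tagged canonical), and sequences were read from hg38, 1-based, on the gene's strand. Of the chromosome and contig names, 24 of 44 and 24 of 53 were in the genome used, holding 24552 and 19208 peaks. An overlap of 1 bp or more made a peak shared, and a pair was 2 peaks that each had the other as the largest overlap. Percentiles are among all exonic peaks, pairs or transcripts. No test was made, since 1 group had lists.

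The 10 members and the other lists were chosen with earlier results of these data known. All 10 members were named, and of each other list at most 8 genes with an exonic peak in both replicates, in order of fold enrichment, except for 1 gene that is not reported here. SRF, genes without a peak and the neighbour CCDC85B were named after their values were seen, and the FOS family exon 2 stretches were chosen in the same way. A planned description of leucine repeats in the proteins was not run, since no protein table was used here. Alternatives were other limits on q and fold enrichment, equal list lengths, other overlap, gene, stop codon and motif rules, midpoints, and each replicate left out. The scripts were tested on simulated data. Python 3.11.15, numpy 2.4.6, pandas 2.3.3, pysam 0.24.0 and matplotlib 3.10.9 were used.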

Additional observations from a re-analysis of the deposited data

How the results depend on the processing

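Of 89 alternative values, 76 stayed within 1.5 times the count given in the report or, for the log2 ratio, within the spread between pairs, and 13 moved further. A limit of fold enrichment of 5 or more accounted for 12 of these. It left peaks on 4 members in replicate 1 (JUN, JUNB, FOSB and IER5), on 3 in replicate 2 (JUN, FOS and FOSB) and on 2 in both, with 4 and 3 peaks, of which 1 and 1 were shared, 2 and 1 lay near the stop codon and 2 and 1 had GGAC near the summit. The genes of the other lists with an exonic peak in both replicates then numbered 12 rather than 27. With GGAC searched within 25 nt, 5 replicate 1 summits had it. Without replicate 1 or without replicate 2, 9 members had a peak. With the strictest limit on q, 8 members had a peak in replicate 1, FOSB being lost. No paired analysis was possible because no test between groups was made. The lists hold no read numbers, so weak peaks cannot be told from shallow ones.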
